A study of Mus musculus with 40 samples.

Results

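10 genes that mark oligodendrocyte progenitor cells (OPCs) at the cell surface or in the surrounding matrix were followed through ChIP-seq peak lists of H3K4me3 and H3K27me3. They were Pdgfra, Cspg4, Ptprz1, Gpr17, Bcan, Ncan, Vcan, Pcdh15, Lhfpl3 and C1ql1, which is 10 of the 55536 annotated genes. They were chosen by name as known OPC markers, at a time when earlier results of these data were known. For each gene, all peaks that touched a promoter were taken, where a promoter ran from 2000 bp upstream to 1000 bp downstream of an annotated transcript start in mm10, and the width of the widest H3K4me3 peak was recorded.

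The mice carried H3-3a-LSL-K27M, a conditional knock-in that expresses H3.3 with lysine 27 changed to methionine from the endogenous H3-3a locus, together with a Cre under the human GFAP promoter that is active in neural stem and progenitor cells, and the sample labels name the litters AMGFAP-Cre;K27M. Controls were littermates, which the study's single-cell methods describe as carrying the stop cassette without Cre, so that H3-3a is expressed from the other allele alone. The mice had the FVB background and were of either sex. OPCs came from brainstem or from dorsal telencephalon, which the sample labels call cortex, of mice at postnatal day 5 to 7. Tissue was pooled by region and genotype, depleted of endothelial cells and microglia, immunopanned on PDGFRA, the product of one of the genes described here, and grown as proliferating progenitors without differentiation. Each mark was assayed in brainstem cultures 59 and 61 and telencephalon cultures 59, 60 and 61, each as a K27M and a control culture of the same number, so that 20 libraries in 5 matched pairs were used, 2 pairs from brainstem and 3 from telencephalon. Each culture is a pool of animals and gives 1 library per mark, so p-values measure the spread between these pools.

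H3K4me3 is laid down around the start sites of transcribed and transcription-ready genes, and unusually broad H3K4me3 domains are known from genes that define a cell's identity. H3K27me3 is deposited by Polycomb repressive complex 2 over silent developmental genes, and promoters that carry both marks are called bivalent. The K27M histone inhibits this complex. The genes described here fall into receptors of the OPC surface (Pdgfra, the receptor for the mitogen PDGF-A, the receptor phosphatase gene Ptprz1, and the G protein-coupled receptor gene Gpr17, which marks progenitors on the way to differentiation), chondroitin sulfate proteoglycans (Cspg4, which encodes NG2, and the lecticans Bcan, Ncan and Vcan, which bind hyaluronan), membrane proteins linked to adhesion or mechanosensory complexes in other cells (Pcdh15 and Lhfpl3), and a secreted C1q-like protein (C1ql1).

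The H3K4me3 lists held 20961 to 31200 peaks per library, and 29.6% to 34.2% of all genes had a promoter peak. The H3K27me3 lists held 12715 to 64808 peaks in the controls and 4739 to 15753 in K27M, and fewer in K27M than in the matched control in 5 of 5 pairs. A peak list records only where signal passed the caller's threshold, so that signal below it was not measured, and depth is not part of the peak lists. Among the telencephalon controls, culture 59 stood apart, with the fewest H3K27me3 peaks of all controls and a median H3K4me3 promoter peak of 1667 bp, the lowest of the 10 libraries, whose medians reached 2655 bp. By the read totals in the study's reporting summary, this control had the most reads of all ChIP libraries of either mark. What lies behind its values was not tested. Microglial genes (8 listed) had no H3K4me3 promoter peak in any library in 7 cases, the exception being P2ry12, and the same held for 4 of 8 endothelial, 4 of 8 mural and fibroblast and 6 of 10 mature oligodendrocyte genes. Of 8 astrocyte genes, 3 had a peak in all 10 libraries, with Slc1a2 the widest, and all 8 had one in at least 1 library. Their part in the results below was not tested.

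RefSeq promoter sequences of GRCm38.p6, the same assembly as mm10, were at hand for 8 of the 10 genes, all except Gpr17 and C1ql1, each from 250 bases before to 50 bases after the RefSeq start. The 4 below are shown because they span the range of H3K4me3 width among genes with H3K4me3 alone, from Pdgfra, with the widest domain and only 5 CpG dinucleotides in 300 bases, and Ptprz1, the next widest, with 29, to Pcdh15 with 8 and Ncan, the narrowest, with 9. Capitals mark CpG. The Pdgfra window lies at chr5:75152001-75152300 on the plus strand, that of Ptprz1 at chr6:22875252-22875551 on the plus strand, that of Pcdh15 at chr10:73821617-73821916 on the plus strand and that of Ncan at chr8:70120795-70121094 on the minus strand.
Pdgfra: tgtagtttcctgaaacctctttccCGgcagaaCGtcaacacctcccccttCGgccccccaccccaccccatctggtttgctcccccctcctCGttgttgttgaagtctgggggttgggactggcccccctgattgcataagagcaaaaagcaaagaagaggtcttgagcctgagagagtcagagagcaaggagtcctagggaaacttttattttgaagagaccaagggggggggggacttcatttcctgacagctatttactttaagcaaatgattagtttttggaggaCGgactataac
Ptprz1: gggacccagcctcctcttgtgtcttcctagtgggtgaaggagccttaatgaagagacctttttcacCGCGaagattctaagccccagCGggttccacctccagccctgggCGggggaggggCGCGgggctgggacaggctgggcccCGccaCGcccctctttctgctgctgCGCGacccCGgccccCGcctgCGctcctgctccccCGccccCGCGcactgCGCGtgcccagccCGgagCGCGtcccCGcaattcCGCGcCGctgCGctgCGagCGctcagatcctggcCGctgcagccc
Pcdh15: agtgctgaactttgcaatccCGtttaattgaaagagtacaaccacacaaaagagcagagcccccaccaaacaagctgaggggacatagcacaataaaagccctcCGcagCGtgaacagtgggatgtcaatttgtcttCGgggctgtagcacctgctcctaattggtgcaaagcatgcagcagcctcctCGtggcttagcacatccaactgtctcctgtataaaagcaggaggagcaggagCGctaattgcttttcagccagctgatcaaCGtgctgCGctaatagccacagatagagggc
Ncan: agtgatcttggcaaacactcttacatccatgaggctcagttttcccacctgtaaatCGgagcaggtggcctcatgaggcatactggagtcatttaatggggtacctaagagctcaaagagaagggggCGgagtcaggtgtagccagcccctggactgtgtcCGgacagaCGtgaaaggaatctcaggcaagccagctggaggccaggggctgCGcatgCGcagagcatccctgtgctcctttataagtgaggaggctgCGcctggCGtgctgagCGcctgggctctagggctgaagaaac

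Over all 32851 promoters of that table, the median CpG count was 7 and 94.6% held at least 1. The letters TATAAA, searched on both strands, were found in 2 of the 8 promoters, those of Ncan and Pcdh15, against 13.6% of all promoters, and the letters ACAAAG, the core of SOX motifs, in 0 of 8 against 18.7%. In the wider 3000-bp promoter of the first coding transcript, C1ql1 held the most CpG of the 10 genes with 173, at percentile 95.3 of 21853 protein-coding genes, followed by Bcan with 133 and Pdgfra with 123, and Gpr17 held the fewest with 37, at percentile 29.5. The median protein-coding gene held 72. Ncan, Pcdh15 and Cspg4 also lay below that median, with 44, 48 and 53.

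Of the 10 genes, 9 had an H3K4me3 promoter peak in all 10 libraries and C1ql1 had one in 9, whereas 28.7% of all genes had one in all 10. Their peaks were also broad. The mean width over the libraries was above 4.75 kb, the 95th percentile of the 15934 genes with a peak in all 10 libraries, at 7 of the 10 genes, and all 10 means, that of C1ql1 taken over its 9 libraries with a peak, were above the median gene at 2.25 kb. These are counts over genes that were chosen as OPC markers, given beside the distribution of all genes and without a test. The order by mean width was Pdgfra at 12.8 kb, Ptprz1 at 8.27 kb, Lhfpl3 at 8.06 kb, Cspg4 at 5.92 kb, Gpr17 at 5.68 kb, Pcdh15 at 5.48 kb, Bcan at 5.21 kb, Vcan at 4.63 kb, Ncan at 3.27 kb and C1ql1 at 2.53 kb. Between neighbours in this order, the difference within a library was larger than its SD for Pdgfra over Ptprz1 (4.53 ± 3.61 kb, SD, n = 10), Vcan over Ncan (1.36 ± 0.583 kb, n = 10) and Ncan over C1ql1 (0.829 ± 0.556 kb, n = 9). The remaining 6 neighbouring pairs differed by less than the SD of their difference.

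**Figure D1:**
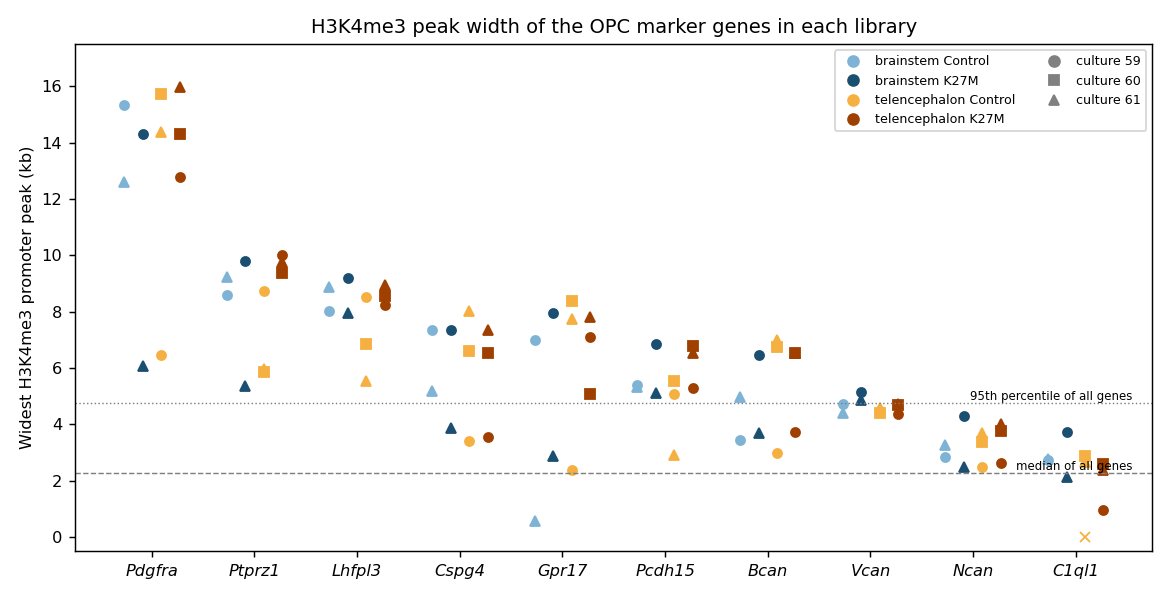
Width of the widest H3K4me3 promoter peak (kb, vertical axis) of each of the 10 genes in each library, with colour for region and genotype, symbol for culture, and a cross where no promoter peak was called. All 10 points of Pdgfra lie above 6 kb, the Vcan points lie between 4.37 and 5.16 kb, and those of Gpr17 spread from 0.571 to 8.36 kb, with the dashed and dotted lines at 2.25 and 4.75 kb, the median and 95th percentile of mean width over 15934 genes.

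**Figure D2:**
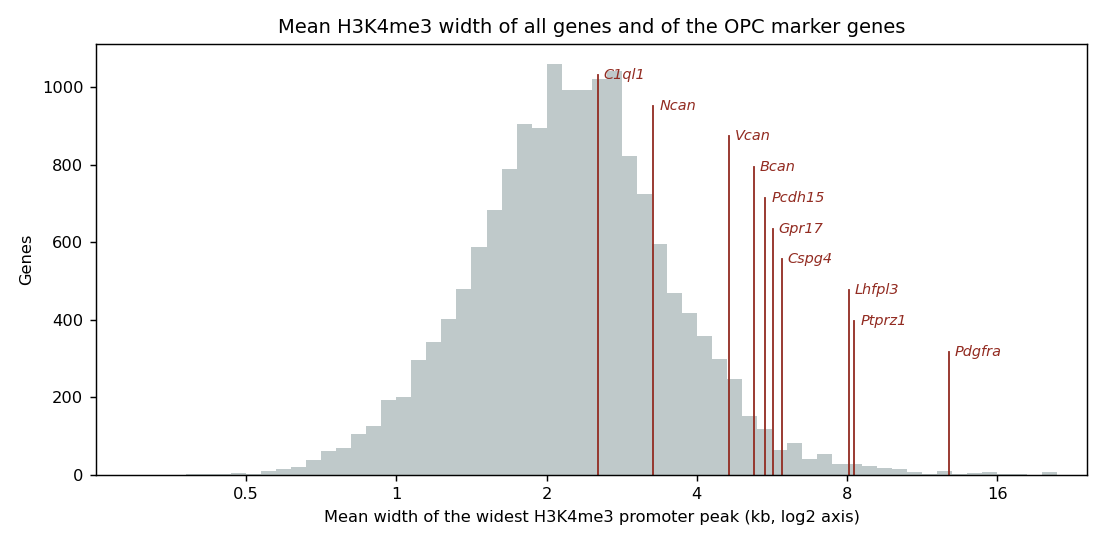
Number of genes (vertical axis) by the mean width of the widest H3K4me3 promoter peak (kb, log2 horizontal axis) over 15934 genes with a peak in all 10 libraries, with vertical lines at the mean of each of the 10 OPC marker genes, whose heights carry no value. Pdgfra lies at 12.8 kb in the right tail, and C1ql1, whose mean is over 9 libraries, and Ncan lie in the body of the distribution.

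Pdgfra (ENSMUSG00000029231.15, chr5:75152292-75198215, plus strand) had the 34th widest mean of the 15934 genes. Its widest peak measured 15351 and 12590 bp in brainstem controls 59 and 61, 14319 and 6063 bp in the K27M cultures of brainstem 59 and 61, 6447, 15738 and 14379 bp in telencephalon controls 59, 60 and 61, and 12767, 14294 and 15982 bp in telencephalon K27M 59, 60 and 61. The 2 low values were fragmented domains: brainstem K27M 61 had 4 separate peaks that touched a promoter, summing to 11142 bp, and telencephalon control 59 had 2, summing to 12264 bp, while the other 8 libraries had 1 peak each. Groups overlapped between genotypes and regions. The median upstream and downstream edges of the domain were −1998 and 11750 bp from the first coding start, a span that holds all 9 annotated starts. H3K4me3 peaks lay over 23.3% to 33.8% of the 45924-bp gene body. The peak also overlapped the promoters of Gm42802, an antisense gene, and Gm42803 in all 10 libraries, and widths there cannot be told apart from that of Pdgfra.

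**Figure D3:**
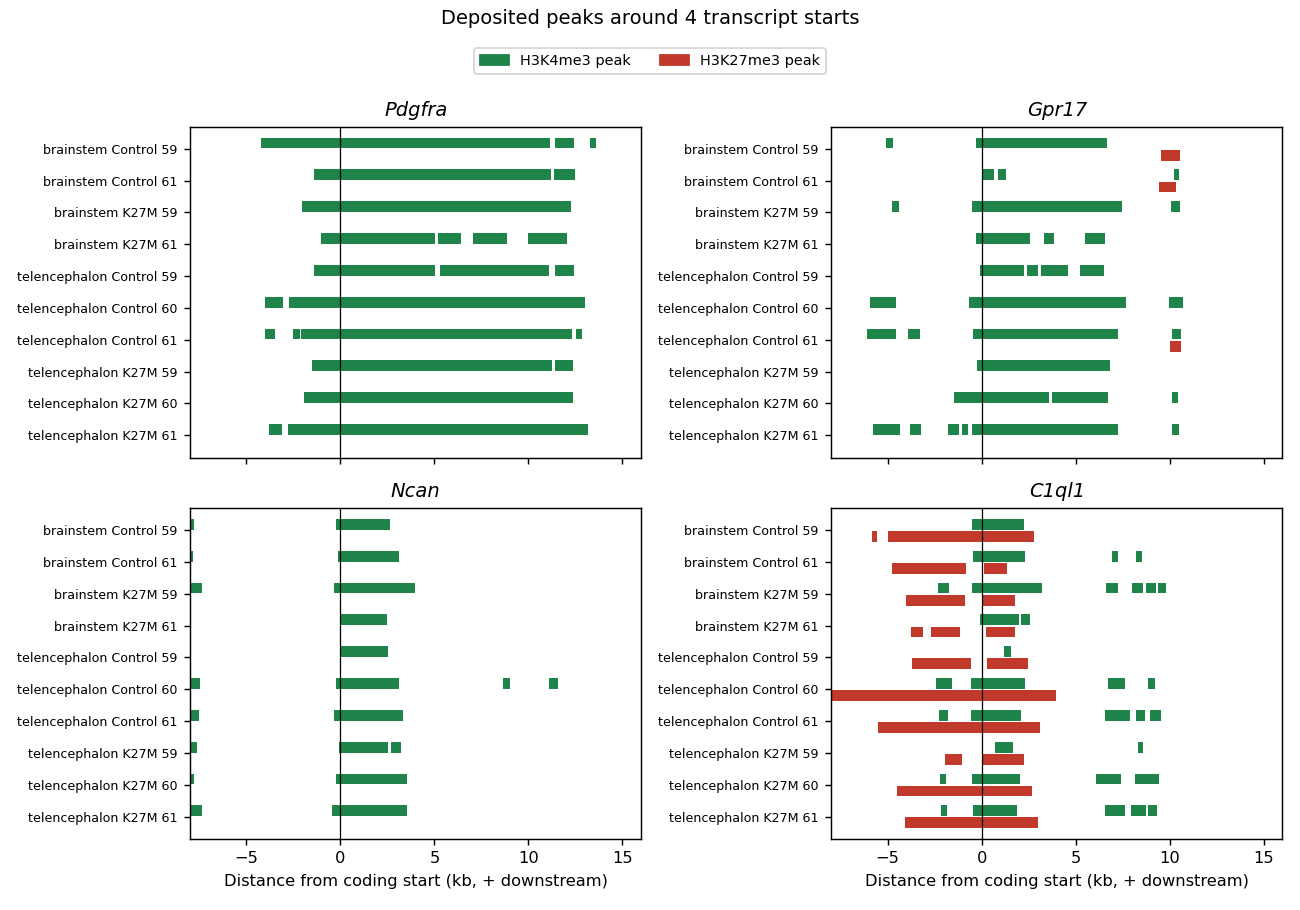
Deposited H3K4me3 (green) and H3K27me3 (red) peaks by distance from the first coding transcript start (kb, horizontal axis, positive downstream) in each of the 10 libraries (rows) at Pdgfra, Gpr17, Ncan and C1ql1. Pdgfra and Ncan have H3K4me3 and no H3K27me3 peak in this window, 3 of the 5 Gpr17 control rows have an H3K27me3 peak downstream of the gene, and C1ql1 has H3K27me3 peaks in every row.

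Ptprz1 (ENSMUSG00000068748.7, chr6:22875502-23052916, plus strand), whose receptor binds the matrix ligands pleiotrophin and midkine, had widths of 8574 and 9228 bp in brainstem controls, 9782 and 5352 bp in the K27M cultures of brainstem, 8732, 5869 and 5977 bp in telencephalon controls and 10008, 9374 and 9772 bp in telencephalon K27M, in the order of culture number. In base pairs the 3 telencephalon K27M libraries were all wider than the 3 telencephalon controls, and the brainstem groups overlapped. At the median gene, too, telencephalon K27M measured 1958, 2431 and 2525 bp against 1667, 2219 and 2269 bp in the matched controls. After centring on these medians, the Ptprz1 log2 difference was −0.036, 0.54 and 0.56 in telencephalon pairs 59, 60 and 61. The share of all genes separated in this way is not given. Only the most upstream of its 4 separate promoter windows carried H3K4me3. Gpr17 (ENSMUSG00000052229.5, chr18:31942997-31949636, minus strand) is a short gene of 6640 bp that the mark covered nearly whole in most libraries. Its widths were 7002 and 571 bp in brainstem controls, 7964 and 2853 bp in the K27M cultures of brainstem, 2360, 8358 and 7717 bp in telencephalon controls and 7085, 5056 and 7795 bp in telencephalon K27M. H3K4me3 peaks lay over 100% of the gene body in 6 libraries, over 97.5%, 85.3% and 62.8% in telencephalon K27M 60, telencephalon control 59 and brainstem K27M 61, and over 15.6% in brainstem control 61, where 2 small peaks summed to 1034 bp. The ratio of the widest to the narrowest library was 14.6 at Gpr17, against 1.18 at Vcan and 2.64 at Pdgfra.

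The proteoglycan genes differed in how steady their peaks were. Vcan (ENSMUSG00000021614.16, chr13:89655312-89742509, minus strand), a lectican of loose, developing matrix, measured 4713 and 4386 bp in brainstem controls, 5160 and 4869 bp in the K27M cultures of brainstem, 4480, 4400 and 4563 bp in telencephalon controls and 4368, 4693 and 4709 bp in telencephalon K27M, a coefficient of variation of 5.40% over the 10 libraries. Cspg4 (ENSMUSG00000032911.6, chr9:56865033-56899870, plus strand) measured 7334 and 5185 bp, 7351 and 3868 bp, 3400, 6614 and 8003 bp, and 3528, 6540 and 7333 bp in the same order of groups, a coefficient of 29.9%. Bcan (ENSMUSG00000004892.13, chr3:87987531-88000230, minus strand), the brain-specific lectican, measured 3424 and 4963 bp, 6464 and 3684 bp, 2970, 6753 and 7002 bp, and 3737, 6521 and 6532 bp. At Cspg4 and Bcan both telencephalon libraries of culture 59 were the narrowest of their group. Ncan (ENSMUSG00000002341.8, chr8:70093085-70120873, minus strand), a lectican of brain matrix, ran from 2486 to 4276 bp with a median of 3302 bp. Its peak began close to the start, with a median upstream edge at −221 bp. In all 10 libraries the Cspg4 peak also overlapped a promoter of Odf3l1, a coding gene on the opposite strand, and the Vcan peak one of the antisense gene Gm4117.

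Pcdh15 (ENSMUSG00000052613.16, chr10:73099342-74649737, plus strand), a protocadherin known from the tip links of hair cells, spans 1550396 bp with 14 annotated starts that fall into 8 separate promoter windows. H3K4me3 was present in all 10 libraries at 2 of these windows and in none at the other 6. The peak at the first coding start measured 5396 and 5331 bp in brainstem controls, 6861 and 5113 bp in the K27M cultures of brainstem, 5075, 5544 and 2905 bp in telencephalon controls and 5299, 6790 and 6518 bp in telencephalon K27M. The peak at the most upstream window, whose summit lay at −722460 bp from that start in telencephalon control 61, was narrower in 9 of 10 libraries, at 1923 to 4307 bp, and 3 bp wider in telencephalon control 61. Lhfpl3 (ENSMUSG00000106379.1, chr5:22746059-23275597, plus strand), which encodes a tetraspan membrane protein, had widths of 8032 and 8860 bp, 9194 and 7940 bp, 8507, 6856 and 5534 bp, and 8218, 8551 and 8935 bp in the same order of groups, which overlapped. Only the upstream of its 2 starts carried a peak, which the promoter of A930003O13Rik, a lincRNA on the opposite strand, shared in all 10 libraries. Across the 10 genes, 11 of 26 separate promoter windows had H3K4me3 in all 10 libraries and 13 had it in none.

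Of the 10 genes, 8 had no H3K27me3 promoter peak in any of the 10 libraries. Among all genes, 25.5% had such a peak in at least 1 library, and among the 15934 genes with H3K4me3 in all 10 libraries 32.8% had one. Most genes of either set thus lacked one, so its absence is not particular to the 10 genes. The exceptions were C1ql1 and Pcdh15. C1ql1 had a peak in 10 of 10 libraries, as 3.28% of all genes had. Pcdh15 had short peaks at its most upstream window in brainstem control 59 (346 bp) and telencephalon control 61 (1324 bp at the widest) and in 0 of 5 K27M libraries. The Pcdh15 peaks had fold enrichments over input of 2.29 and 2.55, as the authors' caller gave them, and with peaks of at least 3-fold only C1ql1 was left. Gene bodies, measured from start to end, include the 1000 bp of promoter downstream of a start. No H3K27me3 peak lay over the gene bodies of 8 genes in any library, and Lhfpl3 had 292 bp in 1 K27M library. C1ql1 was the exception there too, in part through bases that also count as its promoter.

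By the consensus of the control cultures, C1ql1 (ENSMUSG00000045532.5, chr11:102939264-102946688, minus strand) was bivalent in brainstem and in telencephalon, a state that 4.59% and 7.30% of all genes had. The other 9 genes had H3K4me3 only in both regions, and the share of all genes in that state is not given. The consensus needed peaks in at least 2 control cultures, which is both of brainstem but 2 of 3 of telencephalon. A bivalent state in telencephalon alone is thus not by itself a difference between the regions. C1q-like proteins are secreted and bind an adhesion receptor of neurons. The H3K4me3 peak of C1ql1 measured 2730 and 2767 bp in brainstem controls, 3717 and 2111 bp in the K27M cultures of brainstem, 2865 and 2663 bp in telencephalon controls 60 and 61, and 951, 2579 and 2386 bp in telencephalon K27M. In telencephalon control 59 no peak touched the promoter, the nearest running from 1212 to 1554 bp downstream of the start, just outside the window, and when a peak was required in every control culture C1ql1 had H3K27me3 only in telencephalon. Its H3K27me3 peaks covered 100% and 69.5% of the promoter in brainstem controls 59 and 61, 70.9% and 53.0% in brainstem K27M, 73.0%, 100% and 100% in telencephalon controls 59, 60 and 61, and 60.8%, 100% and 100% in telencephalon K27M. The peaks of both marks shared base pairs in all 10 libraries, from 343 to 3717 bp.

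To ask whether K27M changed H3K27me3 at these promoters, the matched pairs were compared for the 2 genes with any peak. Coverage of the C1ql1 promoter was 88.5% ± 15.8 (SD, n = 5) in controls and 76.9% ± 22.0 (n = 5) in K27M. It was lower in K27M in 3 pairs and equal, at full coverage, in 2, with a mean difference of −11.6 percentage points (SD 12.3, n = 5, p = 0.25, adjusted p = 0.5, exact permutation by flipping signs, two-sided). At Pcdh15 the difference was −1.17 points (SD 1.94, n = 5, p = 0.5, adjusted p = 0.5, same exact test). Pcdh15 had peaks in controls alone and was compared only because of them, so the sign of its difference was fixed beforehand. The test decides nothing for Pcdh15. A pair without a difference adds nothing to this test, so that 0.25 and 0.5 are the smallest p that C1ql1, with 3 unequal pairs, and Pcdh15, with 2, could give. The K27M lists held fewer H3K27me3 peaks genome-wide in 5 of 5 pairs, whose part in these values was not tested.

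The distance from the coding start to the nearest H3K27me3 peak separated the genes further. Pdgfra lay 65.3 to 74.6 kb (median 67.2) from one in controls and 67.3 to 74.7 kb (median 72.1) in K27M, and Bcan lay 14.9 to 23.5 kb from one in controls and 21.3 to 23.3 kb in K27M. Closer peaks were found at Lhfpl3 in brainstem control 61, at 2.78 kb, and at Gpr17 in 3 controls. At Gpr17 the nearest peak was 9.41 to 501 kb away in controls (median 9.99) and 318 to 881 kb away in K27M (median 319), without overlap of the genotypes within brainstem. At Ptprz1 the distance was 258 to 350 kb in controls and 355 to 365 kb in K27M, and the 2 genotypes did not overlap. The nearest peak was farther away in K27M than in the matched control in 5 of 5 pairs at Pdgfra, Ptprz1, Gpr17, Vcan and Pcdh15, in 4 at Bcan and Ncan, in 3 at Cspg4 and Lhfpl3 and in 2 at C1ql1. The K27M lists were shorter in every pair, whose part in these distances was not tested. No share over all genes stands beside these distances and counts, so they cannot be read as particular to these genes.

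**Figure D4:**
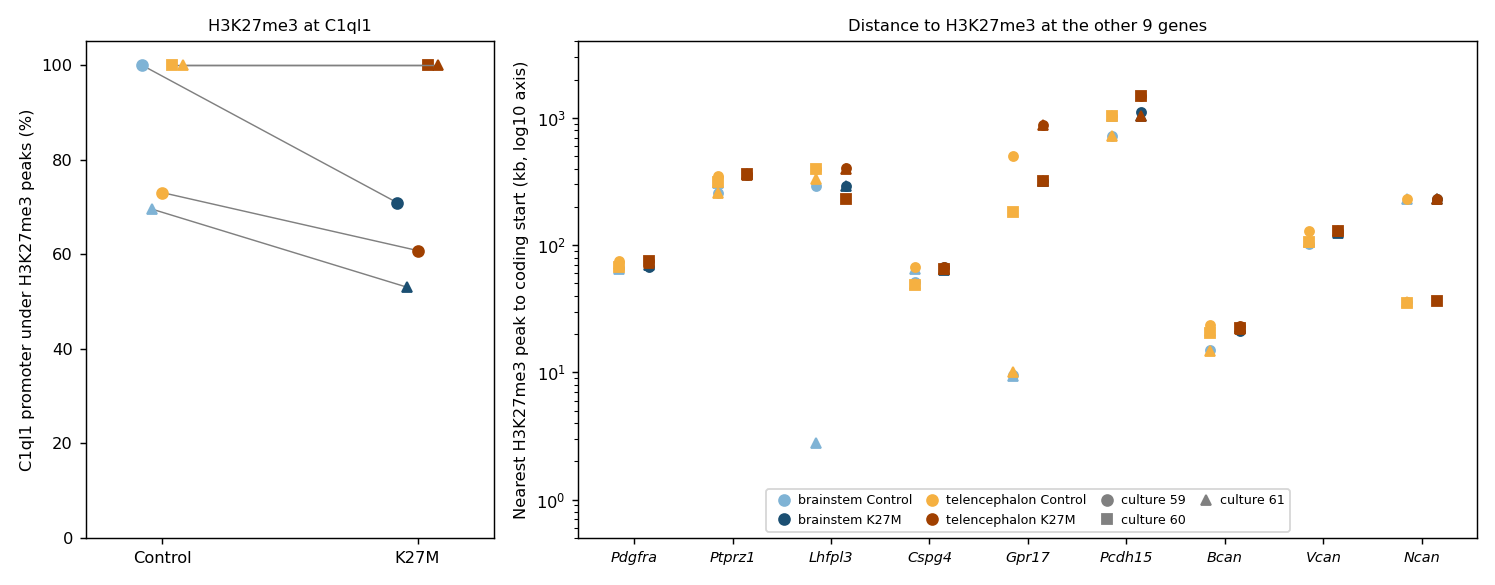
Left, percentage of the C1ql1 promoter under H3K27me3 peaks (vertical axis) in control and K27M libraries, with a line for each of the 5 matched pairs; right, distance from the coding start to the nearest H3K27me3 peak (kb, log10 vertical axis) at the other 9 genes in each library, controls left and K27M right. Coverage at C1ql1 lies between 53.0% and 100%, and at Pdgfra every library lies between 65.3 and 74.7 kb.

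H3K4me3 width was then compared between K27M and control for the 9 genes with a peak in all 10 libraries, with limma on log2 widths of all 15934 such genes, each library centred on its median and the matched pair as a block. No gene of the genome passed in both regions together at an adjusted p under 0.05, so that 0% of the genes were called, and 1018 genes, 6.39%, had an unadjusted p under 0.05, of which none was among the 9. In brainstem 0% were called and 547 genes, 3.43%, had an unadjusted p under 0.05. In telencephalon 0% were called and 1599 genes, 10.0%, did. None of the 9 was among them in either region. The median log2 difference over the 9 genes was 0.02 in both regions together, with 6 above 0 and 3 below, beside a median of −0.01 over all genes.

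Cspg4 was the gene with the most uniform difference. Its centred log2 difference was −0.22, −0.24, −0.18, −0.15 and −0.28 in the 5 pairs, lower in K27M in 5 of 5, and the fit gave −0.22 (SE 0.09, unadjusted p = 0.055 and adjusted p = 0.769 in limma). In base pairs the Cspg4 peak was wider in K27M in 2 of 5 pairs. At the median gene the K27M library was the wider in 4 of 5 pairs, and without centring the Cspg4 difference was −0.12. The largest difference was that of Gpr17, 0.68 (SE 0.42, adjusted p = 0.807), but its pairs ran from −0.86 to 2.51, above 0 in 2 of 5, and the value moved most with the brainstem pairs, to 0.04 without culture 61 and 1.31 without culture 59. Without telencephalon culture 59 it was 0.37. Pdgfra differed by −0.22 (SE 0.20, adjusted p = 0.863) and was below 0 in 4 of 5 pairs, with a range of −0.38 to −0.083 over the alternatives. Pcdh15 differed by 0.23 (SE 0.17, adjusted p = 0.839) and was above 0 in 4 of 5 pairs. The Pcdh15 domain was split in telencephalon control 61, and the value was 0.059 without that culture and 0.0078 with peaks joined across 500 bp. Ptprz1, Bcan, Ncan, Vcan and Lhfpl3 lay between −0.01 and 0.07, with SEs of 0.10 to 0.15. C1ql1, which lacked a width in 1 library, was fitted among genes with a peak in at least 8 libraries, where it differed by −0.14 (SE 0.11, adjusted p = 0.815).

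**Figure D5:**
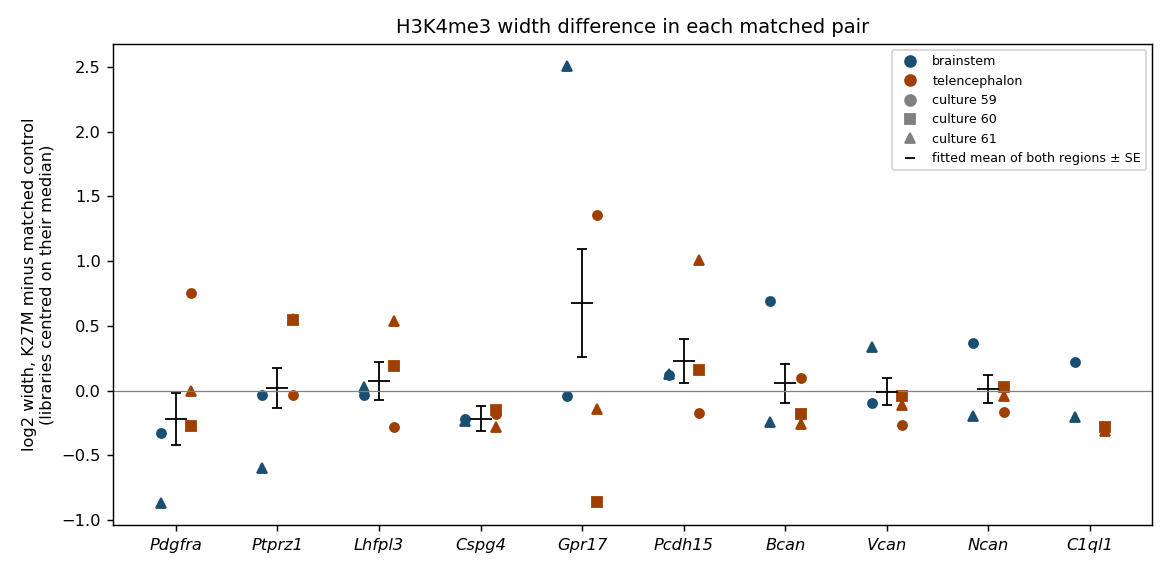
Log2 H3K4me3 width in K27M minus the matched control, after centring each library on its median (vertical axis), for each gene, with a point for each pair, colour for region and symbol for culture, and the fitted mean of both regions with its SE in black for the 9 genes in the fit. All 5 points of Cspg4 lie below 0, between −0.15 and −0.28, and those of Gpr17 spread from −0.86 to 2.51.

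Within regions, the 9 genes went either way. In brainstem the fitted difference was −0.60 (SE 0.31) at Pdgfra and 1.23 (SE 0.65) at Gpr17, the outermost values, and every adjusted p was 1. Neither was stable: Pdgfra, whose domain was split in brainstem K27M 61, was at −0.16 with summed peak length, and Gpr17 at −0.04 without culture 61 and 2.51 without culture 59. In telencephalon it was 0.35 (SE 0.19, adjusted p = 0.575) at Ptprz1, the largest, and −0.20 (SE 0.12, adjusted p = 0.6) at Cspg4, the lowest. Leaving out telencephalon culture 59, whose control had the narrowest peaks, raised the Ptprz1 value to 0.55 (adjusted p = 0.201 in limma) and the number of genes called in telencephalon to 41, none among the 9. The difference of the K27M terms between the regions was 0.76 (SE 0.40) at Pdgfra and 0.67 (SE 0.31) at Ptprz1, more positive in telencephalon, and −1.11 (SE 0.84) at Gpr17, with adjusted p from 0.964 to 0.997 over the 9 genes. The Pdgfra value was 0.034 with summed peak length and 1.03 without brainstem culture 59, and the Gpr17 value turned to 0.16 without brainstem culture 61. In that comparison 0% of all genes were called and 4.13% had an unadjusted p under 0.05.

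To ask whether the region of origin set these domains apart, telencephalon was compared with brainstem within each genotype. In controls 0% of genes were called and 1099, 6.90%, had an unadjusted p under 0.05. In K27M 4 genes, 0.0251%, were called and 273, 1.71%, had an unadjusted p under 0.05. None of the 9 genes was among them in either. In controls Gpr17 differed by 1.57 (SE 0.87, adjusted p = 0.766), a value that turned to −0.23 without brainstem culture 61, whose control had the 571-bp peak, and was 3.37 without brainstem culture 59. Bcan differed by 0.49 (SE 0.28, adjusted p = 0.772) and Ptprz1 by −0.25 (SE 0.31, adjusted p = 0.913). Here the result rested on the libraries used: without telencephalon culture 59, 760 genes were called, 398 wider in telencephalon and 362 in brainstem, and Bcan at 0.75 (adjusted p = 0.0724) and Ptprz1 at −0.58 (adjusted p = 0.0864) came closest of the 9 without passing. Without that culture the 2 telencephalon controls had Bcan peaks of 6753 and 7002 bp against 3424 and 4963 bp in brainstem, and Ptprz1 peaks of 5869 and 5977 bp against 8574 and 9228 bp. In K27M the largest difference was that of Pdgfra, 0.62 (SE 0.31, adjusted p = 1), which was 0.17 with summed peak length, 0.21 without brainstem culture 61 and 1.02 without brainstem culture 59.

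The measure by which other genes were compared with Pdgfra was the Pearson correlation of centred log2 width over the 10 libraries. The closest were Gm42802 and Gm42803 at r = 1, which share its peak, and Map4k1 at r = 0.974 with a mean width of 1.69 kb. The 10 points share libraries and their depth, and 15934 genes were ranked. Among the marker genes with a peak in all 10 libraries, the correlation with Pdgfra ran from −0.75 at Vcan to 0.60 at Cspg4. They thus did not all vary with Pdgfra, and correlations among the other marker genes were not computed.

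Genes that work with these markers gave a mixed picture. Of 20 other OPC-enriched genes, 15 had H3K4me3 in all 10 libraries, with a median width of 4.38 kb and Dscam (7.41 kb), Xylt1 (7.18 kb) and Cspg5 (6.46 kb) the widest. H3K27me3 was found in at least 1 library at 4 of the 20, the same share as 2 of the 10 markers, beside 25.5% of all genes. Emid1 and Susd5, named after their values were seen, were bivalent in both regions. The PDGF ligands and the related receptor had H3K27me3 in at least 1 library in 5 of 5 cases. Pdgfb was bivalent in both regions. Pdgfa, the ligand of PDGFRA, and Pdgfrb, a receptor of mural cells, were bivalent by consensus in telencephalon only, and Pdgfa was the widest at 3.95 kb. H3K27me3 peaks touched a promoter of Pdgfa in all 5 controls, those of brainstem included. Of 6 PTPRZ1 ligands and partners, 5 had H3K4me3 in all 10 libraries and 0 were bivalent, led by Ptn, the gene of pleiotrophin, at 6.87 kb, Cntn1 at 5.72 kb and Nfasc at 3.40 kb. Only those of these genes with H3K4me3 in all 10 libraries entered the test for K27M in both regions. None of them was called, beside 0% of all 15934 genes tested.

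The 20 genes of the hyaluronan and lectican matrix had H3K4me3 in all 10 libraries in 18 cases, with a median width of 2.28 kb, close to that of all genes, led by Chst11 (6.31 kb), Adamts1 (4.68 kb) and Tnr (3.91 kb), and 14 had H3K27me3 in at least 1 library. Each lectican gene lies beside a gene of the Hapln family, whose products link lecticans to hyaluronan. These neighbours were named for their position, outside the rule for naming genes. Bcan lies 21.5 kb from Hapln2, which was bivalent in both regions with H3K27me3 in 10 of 10 libraries and a mean width of 1.73 kb, against H3K4me3 only and 5.21 kb at Bcan. Ncan lies 2.22 kb from Hapln4, which had H3K27me3 in 4 libraries, was bivalent in telencephalon and H3K4me3 only in brainstem, and measured 1.80 kb against 3.27 kb at Ncan. Vcan lies 43.7 kb from Hapln1, which had H3K27me3 in 8 libraries, 5 controls and 3 K27M, but by consensus was H3K4me3 only in both regions, as Vcan was, and measured 0.960 kb against 4.63 kb at Vcan. Acan, the remaining lectican and typical of cartilage and perineuronal nets, was itself bivalent in both regions with H3K27me3 in 10 of 10 libraries and a width of 1.35 kb. Its neighbour Hapln3, 2 bp away, was unmarked in both regions, with H3K4me3 in 2 libraries and H3K27me3 in 3.

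Relatives of the adhesion and C1q-like genes also ranged widely. Of 10 such genes, 6 had H3K4me3 in all 10 libraries and 8 had H3K27me3 in at least 1. Adgrb3, the receptor of C1q-like proteins, was the widest at 9.16 kb, followed by C1ql3 at 4.26 kb, both without an H3K27me3 promoter peak in any library. C1ql2 and C1ql4, like C1ql1, were bivalent in both regions with H3K27me3 in 10 of 10 libraries, and C1ql2 lacked a promoter H3K4me3 peak in 1 library and C1ql4 in 2. Cdh23, the tip-link partner of protocadherin 15, was bivalent in both regions at 1.56 kb, whereas Pcdh15 had H3K4me3 only. Lhfpl2, with an H3K27me3 promoter peak in 4 controls, was bivalent by consensus in telencephalon only.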

How the data were processed

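Per the study's methods and the submitters' processing notes, the authors trimmed reads with Trim Galore 0.6.7, aligned them to mm10 with BWA 0.7.17-r1188, took out blacklisted regions and ran MACS2 2.2.7.1 per library with the matching input, in narrow mode for H3K4me3 and broad mode for H3K27me3. Replicates were not pooled. Each deposited list gives the authors' fold enrichment (a ratio to input) and, as −log10, a p-value and a q-value. The authors' peak caller also wrote a score per peak into the deposited lists, which was not used, and a summit for narrow peaks. The 20 input samples, spike-in, ATAC-seq and RNA-seq were not analysed here.

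Overlapping peaks were merged within a library, and promoters came from GENCODE M21 on GRCm38, in which 0 of 519164 peaks passed a chromosome end. Sample groups came from the labels. Promoter states used the MSPC rule, rewritten here (p-values 1e-10 and 1e-06 for H3K4me3, 1e-08 and 1e-04 for H3K27me3, at least 2 cultures). Widths were tested in limma 3.58.1 (R 4.3.3) with a trend, Benjamini-Hochberg adjustment and the matched pair (K27M and control cultures of the same number and region) as a block. Within a matched pair, deviations from the group means correlated with r = 0.59, 0.39 and 0.36 in telencephalon 59, 60 and 61 and −0.0093 in brainstem. Regions were compared by group means. Promoter coverage was tested by a sign-flip permutation. Functions were tested on simulated data. The 10 genes, the other lists and the tests were chosen with earlier results of these data known. Named from other lists were at most 3 genes with the widest mean peak and, in lists of up to 10 genes, bivalent genes. Alternatives are given in the closing section. Some genes of the lists and calls are not reported here.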

Additional observations from a re-analysis of the deposited data

How the results depend on the processing

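No marker gene passed an adjusted p of 0.05 in limma in any of the 6 width comparisons under any of their alternatives, although the sign of its difference changed in 84 of 810 values. The counts of genes called moved as follows. Between K27M and control in both regions, 0 genes became 1 with summed peak length and 7 with a peak required in at least 8 of 10 libraries, and 0 to 7 with a culture left out. In brainstem, 0 became 2 with a peak in at least 8 libraries. In telencephalon, 0 became 0 to 41 with a culture left out. Between regions in controls, 0 became 4 with quantile normalization, 8 with peaks joined across 500 bp and 0 to 760 with a culture left out, and in K27M, 4 became 0 without centring, 8 with joined peaks, 2 among protein-coding genes and 0 to 16 with a culture left out. The highest of each range came from leaving out telencephalon culture 59. The cause of these moves was not tested. The difference of the K27M terms between the regions called 0 genes under every alternative. Without the matched pairs (no replicate block) 0 genes were called for K27M, and the C1ql1 H3K27me3 difference kept its −11.58 points with p = 0.4 by permutation. With a replicate block on culture number, region contrasts called 0 genes in controls and 4 in K27M. The block changed no call of a marker gene.

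With peaks of at least 3-fold enrichment, 1 marker gene in place of 2 had H3K27me3, and with a peak in every control culture 0 in place of 1 was bivalent in telencephalon. Leaving out a culture gave 9 or 10 genes with H3K4me3 in every library, the 10 without telencephalon culture 59. Between 7 and 8 genes lay above the 95th percentile of width under alternatives added after the data were seen. Peak lists without read counts limit all of these to signal above the caller's threshold.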

Other observations

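The transcription factor genes of the oligodendrocyte lineage had broad H3K4me3 peaks, as most of the marker genes did. All 7 had H3K4me3 in all 10 libraries, 6 of them above the 95th percentile of mean width, led by Sox6 at 15.3 kb, Olig2 at 11.7 kb and Sox8 at 10.2 kb. All 7 had H3K4me3 only in both regions, a state whose share over all genes is not given. Nkx2-2 was the 1 gene of the 7 with H3K27me3 promoter peaks, in 5 libraries. Of all genes, 25.5% had such a peak in at least 1 library. Of 10 genes of mature oligodendrocytes, 3 had H3K4me3 in all 10 libraries, beside 28.7% of all genes, led by Cldn11 at 3.95 kb, Mal was bivalent in both regions and Mbp in telencephalon, and Mobp had H3K27me3 only in both. Of 8 neuronal genes, 5 were bivalent in brainstem (Rbfox3, Stmn2, Slc17a7, Gad1 and Gad2), and these and Slc17a6 in telencephalon. As a check of the labelled regions, with genes listed after the data were seen, Hoxa3, Hoxb3 and Hoxb4, patterning genes of the hindbrain, were in the H3K27me3-only state in telencephalon controls, and in brainstem Hoxa3 and Hoxb3 were bivalent and Hoxb4 was H3K27me3-only. Of forebrain genes, Emx1 was bivalent in both regions, and Emx2 was bivalent in brainstem and H3K4me3-only in telencephalon.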
